A study of Mus musculus with 21 samples.

Results

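Planar cell polarity genes are described here as 10 genes taken by symbol from the expression table of mouse notochord and mesoderm cells: *Vangl1*, *Vangl2*, *Prickle1*, *Prickle2*, *Celsr1*, *Celsr2*, *Celsr3*, *Ptk7*, *Cthrc1* and *Scrib*. All 10 were found among 23983 symbols, and 9 of them had a mean of at least 1 FPKM (fragments per kilobase of transcript, scaled to the mapped reads of the library) over the 9 libraries, as did 11922 genes in all. *Celsr3*, with a mean of 0.694 FPKM, fell below that limit. It is described by its values only.

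The series measured RNA, open chromatin, histone marks and binding of T (brachyury) and Foxa2 in 21 samples of notochord and mesoderm cells from the mouse embryo and from differentiated embryonic stem (ES) cells. The RNA libraries and the T and Foxa2 peaks are used here. The embryos of embryonic day (E) 8.5 and E9.5 were made from F1G4 (C57BL/6N x SV129) ES cells with 3 reporters on bacterial artificial chromosomes (BACs), T::H2B-Venus, Noto::H2B-mCherry and Foxa2::H2B-mTurquoise, and each library came from pooled embryos. Notochord progenitors (NotoPs; Noto+/T+/Foxa2+) and mesoderm progenitors (MPs; T+/Noto-/Foxa2-) were sorted from the caudal ends of the embryos, and trunk notochord (T+/Noto+/Foxa2+) from the trunk. The cultured cells came from another F1G4 line, which carried T::H2B-mCherry-T2A-irTA and Noto::H2B-mTurquoise, both on BACs, and TRE::Foxa2-IRES-EGFP at Rosa26. In that line the T regulatory sequences drive a transactivator, and doxycycline switches on Foxa2 only in cells that use them. Cultures received 10 ng/ml bFGF from day 1 to day 3 and CHIR99021, an activator of Wnt signalling, from day 2 to day 3 (NMPdiff) or day 4 (the other 2). Doxycycline (1 ng/ml, day 2 to day 4) was added for the notochord progenitor-like cells (NotoPdiff; sorted Noto+/T+), and mesodermal (MPdiff) and neuromesodermal (NMPdiff) progenitors were sorted as T+/Noto-. T and Foxa2 were mapped by chromatin immunoprecipitation (ChIP-seq) in unsorted NotoPdiff cultures, in which the bound Foxa2 can include the product of the transgene.

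Each group had 1 library, so no difference below has a replicate check, and the order of levels is an order of single libraries whose spread is unknown. The one test made, with limma, fitted cell type and stage to log2(FPKM + 1) in the 6 embryonic libraries, so that E8.5 and E9.5 stand in as the repeats of a cell type and 2 residual degrees of freedom are left. Its p-values were adjusted by the Benjamini-Hochberg method over 11922 genes. The FPKM table holds no read counts. The study lists mapped reads for the embryonic libraries, with the fewest in E8.5 MPs. It also lists fewer cells and fewer mapped reads for both trunk notochord libraries than for either NotoP library. The trunk pools spanned wider ranges of somite stages than the NotoP pools. The read values are not used here, and no interval is given for a level. A gene was called when log2(FPKM + 1) differed by more than 3-fold, at both stages and in the same direction for embryonic cells. This scale understates the change of low genes. The cultured libraries were sequenced on another instrument than the embryonic ones, so ratios were formed only within the embryo or within the culture. Between 31.6% and 58.1% of the table's symbols are listed at 0 in a library, with the highest share in the E8.5 MPs, which were made from the fewest cells. The notochord markers *Noto*, *T*, *Foxa2*, *Shh*, *Chrd*, *Nog* and *Foxa1* were all at 1 FPKM or more in both NotoP libraries, in E8.5 trunk notochord and in NotoPdiffs. In E9.5 trunk notochord 6 of the 7 reached that level, with *Chrd* listed at 0. The count was 3 in E8.5 MPs, 2 in E9.5 MPs, 5 in NMPdiffs and 3 in MPdiffs. Embryonic notochord cells were sorted on reporters of *Noto*, *T* and *Foxa2*. NotoPdiffs were sorted on reporters of *Noto* and *T* after induction of Foxa2, so the levels of these markers partly follow from the design. The mesoderm progenitor markers *Tbx6*, *Msgn1*, *Dll1*, *Hes7* and *Rspo3* summed to 195 and 473 FPKM in E8.5 and E9.5 MPs, and also to 336 and 272 FPKM in the NotoP libraries, whereas their sum was 5.60 FPKM in E8.5 trunk notochord and all 5 are listed at 0 at E9.5. The somite markers *Meox1*, *Tcf15*, *Pax3* and *Foxc2* summed to 57.3 and 18.9 FPKM in E8.5 and E9.5 trunk notochord. Their sums were 19.0 and 18.7 FPKM in NotoPs and 69.3 and 52.9 in MPs. In culture they were 9.73 FPKM in NotoPdiffs, 25.1 in MPdiffs and 0.996 in NMPdiffs. The part of somite cells in the trunk levels was not tested. In culture the neuromesodermal progenitor markers *Nkx1-2*, *Sox2* and *Cdx2* summed to 46.1 FPKM in NMPdiffs, 68.3 in NotoPdiffs and 57.6 in MPdiffs. *Nkx1-2* was highest in NMPdiffs (41.5 FPKM, compared with 19.2 in NotoPdiffs and 7.13 in MPdiffs). *Sox2* (1.07, compared with 9.24 and 3.49) and *Cdx2* (3.49, compared with 39.9 and 47.0) were lowest in NMPdiffs. The 4 blood markers are at 0 in every embryonic library and at most 0.393 FPKM in culture. In such pooled RNA, fewer cells of a type and less RNA per cell cannot be told apart.

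Planar cell polarity is the alignment of cells within the plane of a tissue. Its core proteins sort to opposite sides of each cell: the atypical cadherins Celsr1, Celsr2 and Celsr3 bridge neighbouring membranes, the four-pass membrane protein Vangl and its cytoplasmic partner Prickle collect on one side, and Frizzled and Dishevelled on the other. The pathway is known for its part in convergent extension, by which the notochord and neural plate narrow and lengthen. Ptk7 is a pseudokinase receptor that acts with the pathway, Cthrc1 is a secreted glycoprotein that joins Wnt ligands with Frizzled and Ror receptors, and Scrib is a scaffold protein of the basolateral membrane that binds Vangl.

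T and Foxa2 peaks overlapped at *Cthrc1*, *Prickle2* and *Prickle1*. The sequences around their summits are shown because these 3 genes had the shared sites, and *Cthrc1* and *Prickle2* also had the widest gap in level between NotoPs and MPs. Sequences are the plus strand of mm10, read from the RefSeq GRCm38.p6 genome, which is the same build. Capitals mark the forkhead motif TGTTTAC or TGTTTGC on either strand. The T motif element TCACACCT was searched as well and occurs in none of them.
Cthrc1, T and Foxa2 summits with 50 bases on either side, chr15:39018804-39019010, intron of *Fzd6*: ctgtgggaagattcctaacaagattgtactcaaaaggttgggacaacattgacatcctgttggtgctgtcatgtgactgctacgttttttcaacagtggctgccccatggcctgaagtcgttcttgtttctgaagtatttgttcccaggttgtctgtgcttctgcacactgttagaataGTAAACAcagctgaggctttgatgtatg
Prickle2, T and Foxa2 summits with 50 bases on either side, chr6:92510887-92510988, intron of *Prickle2*: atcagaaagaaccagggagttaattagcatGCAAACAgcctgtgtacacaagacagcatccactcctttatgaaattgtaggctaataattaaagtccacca
Prickle1, T summit with 50 bases on either side, chr15:93563854-93563954, intron of *Prickle1*: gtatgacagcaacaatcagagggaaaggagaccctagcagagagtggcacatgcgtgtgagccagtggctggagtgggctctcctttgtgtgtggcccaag
The first holds the forkhead motif as TGTTTAC and the second as TGTTTGC, both on the minus strand, and the third has neither.

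**Figure D1:**
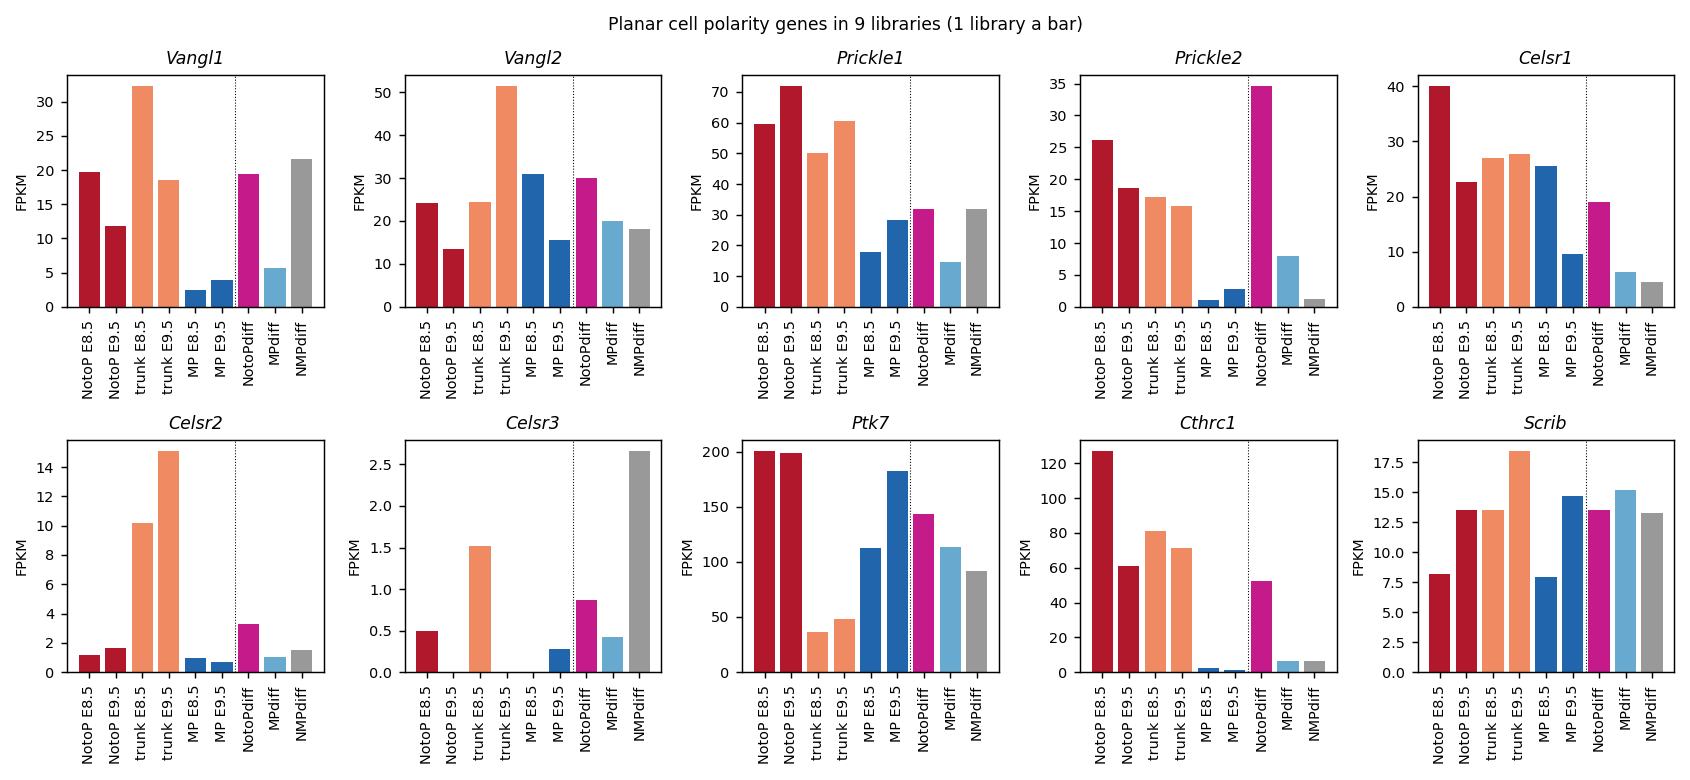
FPKM (vertical axis, linear, a scale of its own in each panel) of the 10 genes in 9 libraries, 1 bar a library; the dotted line separates embryonic from cultured libraries, which were sequenced on different instruments. *Cthrc1* and *Prickle2* stood high in NotoPs, trunk notochord and NotoPdiffs and low in MPs, *Celsr2* was high in trunk notochord, and *Ptk7* was lowest there.

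Several members had higher levels in notochord cells than in MPs. In NotoPs compared with MPs, 2 of the 9 members tested, *Cthrc1* and *Prickle2*, were called higher at both stages, beside 2.61% of all genes tested, and 0 were called lower, beside 0.478%. The median difference of the 9 members was 0.83 at E8.5 and 1.16 at E9.5 on the log2(FPKM + 1) scale, compared with 0.10 and 0.02 over all genes tested. In trunk notochord compared with MPs, 4 members were called higher (*Cthrc1*, *Prickle2*, *Vangl1* and *Celsr2*), beside 4.44% of genes, and 1 lower (*Ptk7*), beside 1.88%. In NotoPdiffs compared with MPdiffs, 3 members were called higher (*Cthrc1*, *Prickle2* and *Vangl1*), beside 2.82% of genes, and 0 lower, beside 0.78%. The summed FPKM of all 10 members was 507 and 413 in E8.5 and E9.5 NotoPs, 201 and 259 in MPs, 294 and 327 in trunk notochord, 348 in NotoPdiffs, 191 in MPdiffs and 193 in NMPdiffs. The 3 gut markers in the table, *Sox17*, *Epcam* and *Cldn6* (*Spink1* was not among its symbols), summed to 68.8 and 32.1 FPKM in E8.5 and E9.5 NotoPs, 36.7 and 2.57 in MPs, 54.8 and 29.1 in trunk notochord, 165 in NotoPdiffs, 8.99 in MPdiffs and 99.1 in NMPdiffs. Their sum was thus also higher in NotoPs than in MPs at each stage and in culture. At E8.5 *Cldn6* alone carried this (47.0 FPKM in NotoPs and 8.62 in MPs), while *Epcam* (18.3 and 22.7) and *Sox17* (3.58 and 5.37) were lower in NotoPs. The part of such cells in the members' differences was not tested. In the limma fit, 0 of the 9 members passed an adjusted p of 0.05 in NotoPs over MPs, where 0.0252% of all genes were called higher and 0% lower; 4 members were under 0.05 before adjustment, as were 970 genes. In trunk notochord over MPs 1 member was called higher, *Cthrc1*, beside 0.101% of genes, and 0 lower, beside 0.0419%. Fits with 1 of the 6 libraries left out keep 1 library of that cell type and fewer residual degrees of freedom, so they cannot show how stable these calls are. Both embryonic comparisons with MPs use the same MP libraries.

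**Figure D2:**
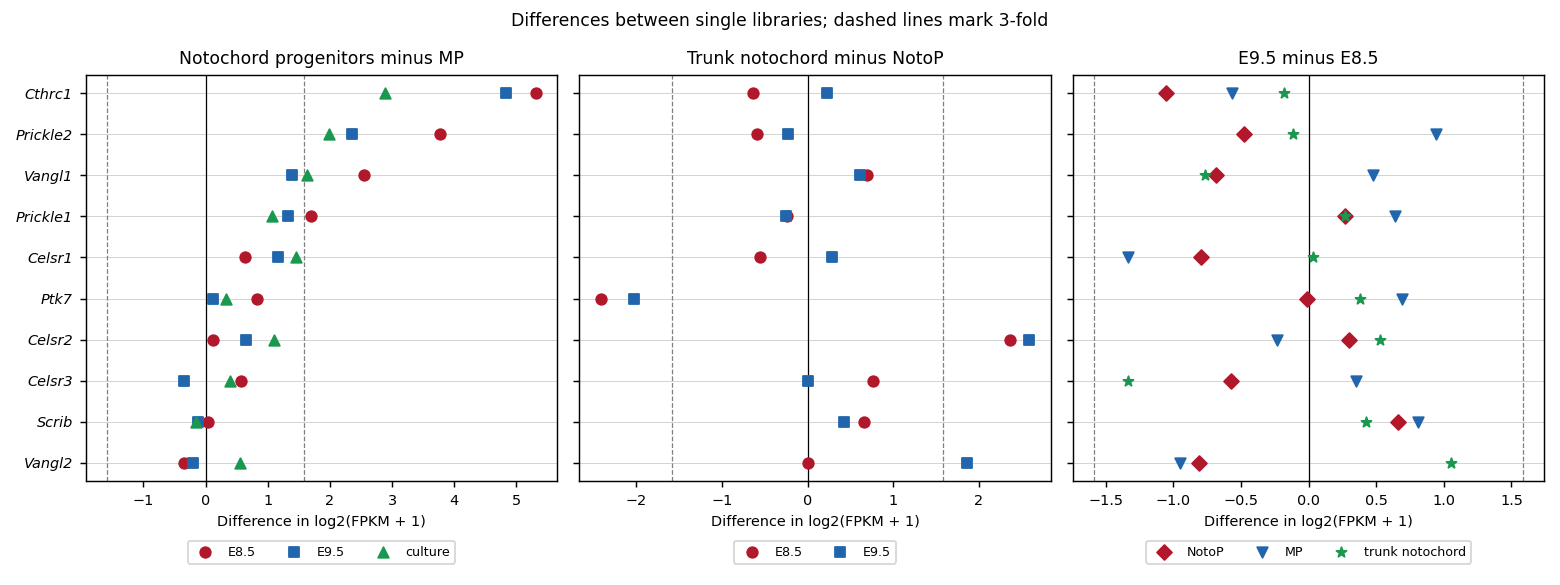
Difference in log2(FPKM + 1) (horizontal axis) for each member: NotoPs minus MPs at E8.5 and E9.5 and NotoPdiffs minus MPdiffs (left), trunk notochord minus NotoPs (middle), and E9.5 minus E8.5 in each embryonic cell type (right). Each point is 1 pair of libraries and dashed lines mark 3-fold. *Cthrc1* and *Prickle2* lie past the line in all 3 pairs on the left, *Celsr2* and *Ptk7* in both pairs in the middle, and no member in the right panel.

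The secreted factor *Cthrc1* (chr15:39076932-39087121, plus strand) showed the widest gap. Its FPKM was 127 and 60.9 in E8.5 and E9.5 NotoPs, 81.3 and 71.5 in trunk notochord, and 2.23 and 1.18 in MPs. The 4 notochord libraries thus lay between 60.9 and 127 and both MP libraries below 3 FPKM. The ratio of NotoPs to MPs was 57.1 at E8.5 and 51.6 at E9.5 (log2 differences of 5.31 and 4.83). In the limma fit the mean log2 difference from MPs was 5.07 ± 0.37 (SE) in NotoPs (adjusted p = 0.0589) and 4.86 ± 0.37 in trunk notochord (adjusted p = 0.0337). In culture *Cthrc1* was at 52.4 FPKM in NotoPdiffs, 6.24 in MPdiffs and 6.13 in NMPdiffs, ratios of 8.40 and 8.55. Among the genes tested, it stood at the 96.2th percentile of E8.5 NotoPs and at the 13.6th of E9.5 MPs. Across the 9 libraries, the genes with the most similar pattern were *Sema3e* (Pearson r = 0.97), *Moxd1* (r = 0.97) and *Sox9* (r = 0.97), among 8353 genes whose mean reached 5 FPKM. These correlations, like those given for other members, are on the log2(FPKM + 1) scale, describe 9 libraries of 6 cell types from 2 instruments, and were not tested.

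*Cthrc1* begins 38.7 kb after the end of *Fzd6*, the nearest protein-coding gene upstream, which encodes a Frizzled receptor of the same pathway (chr15:39006149-39038192, plus strand). *Fzd6* was at 23.1 and 16.6 FPKM in E8.5 and E9.5 NotoPs and at 8.62 and 10.5 in trunk notochord. It is listed at 0 in E8.5 MPs and had 0.224 FPKM in E9.5 MPs. In culture it was at 30.4 FPKM in NotoPdiffs, 2.48 in MPdiffs and 5.98 in NMPdiffs. Both neighbours were therefore higher in every notochord library than in either MP library. The shared peak printed above lies in an intron of *Fzd6*, 12.7 kb (T summit) and 12.8 kb (Foxa2 summit) from the *Fzd6* start and 58.1 kb and 58.0 kb upstream of the *Cthrc1* start. Its fold enrichment, the signal at the summit over the local background, was 9.31 for T and 15.5 for Foxa2. The Foxa2 value was above 95.5% of the 22684 Foxa2 peaks and the T value above 67.9% of the 6875 T peaks. It was the only T peak within 100 kb of the *Cthrc1* start; a Foxa2 peak of 6.94-fold enrichment lies 70.0 kb downstream, between genes.

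Of the cytoplasmic partners of Vangl, *Prickle1* (chr15:93499111-93596266, minus strand) was the main paralogue in every embryonic library, and *Prickle2* (chr6:92370891-92706334, minus strand) was added in notochord cells. *Prickle2* was at 26.2 and 18.6 FPKM in E8.5 and E9.5 NotoPs, 17.1 and 15.8 in trunk notochord, and 1.01 and 2.84 in MPs. All 4 notochord libraries were above 15 FPKM and both MP libraries below 3. The ratio of NotoPs to MPs was 26.1 at E8.5 and 6.52 at E9.5 (log2 differences of 3.76 and 2.35), and that of trunk notochord to MPs 17.0 and 5.54. The mean log2 difference of NotoPs from MPs was 3.05 ± 0.59 (SE; limma, adjusted p = 0.431). In culture *Prickle2* was at 34.7 FPKM in NotoPdiffs, 8.01 in MPdiffs and 1.28 in NMPdiffs, so NotoPdiffs stood 4.33 times above MPdiffs and 27 times above NMPdiffs.

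*Prickle1* was at 59.6 and 72.0 FPKM in E8.5 and E9.5 NotoPs, 50.1 and 60.5 in trunk notochord, and 17.8 and 28.2 in MPs. The notochord libraries did not overlap the MP libraries, but the ratio of NotoPs to MPs passed 3-fold at E8.5 alone (3.35, compared with 2.55 at E9.5), so the gene was not called. In culture it was at 31.8 FPKM in NotoPdiffs, 14.7 in MPdiffs and 31.9 in NMPdiffs, which set NotoPdiffs level with NMPdiffs (ratio of 0.998). *Prickle2* accordingly made up 30.6% and 20.5% of the summed *Prickle1* and *Prickle2* FPKM in NotoPs, 25.5% and 20.7% in trunk notochord, and 5.35% and 9.16% in MPs at E8.5 and E9.5. The share was 52.2% in NotoPdiffs, 35.3% in MPdiffs and 3.88% in NMPdiffs. NotoPdiffs were the only library in which *Prickle2* passed *Prickle1*. *Prickle3*, left out of this sum, was above *Prickle2* in E8.5 MPs (6.46 FPKM) and NMPdiffs (5.92) and below it in every other library. With *Prickle3* and *Prickle4* added to the sum, the *Prickle2* share in NotoPdiffs was 48.0%. The genes most like *Prickle2* were *Phlda1* (r = 0.97), *Mtss1l* (r = 0.95) and *Limk2* (r = 0.95), and those most like *Prickle1* were *Ephb3* (r = 0.96), *Lypd6b* (r = 0.95) and *Mea1* (r = 0.94).

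**Figure D3:**
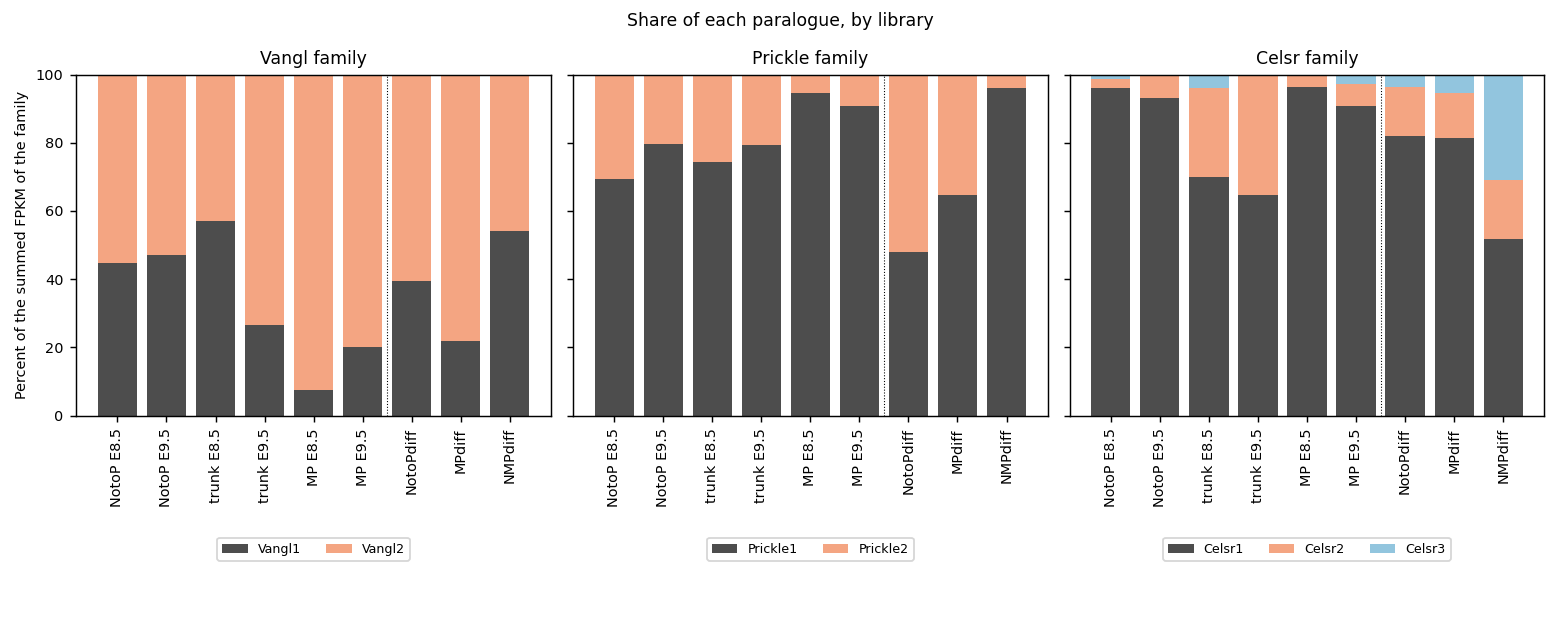
Percent of the summed FPKM of the Vangl, Prickle and Celsr families (vertical axis) taken by each paralogue in 9 libraries. The Prickle sum holds *Prickle1* and *Prickle2* only. *Vangl1* took 7.52% and 20.0% of the Vangl sum in E8.5 and E9.5 MPs and 44.9% and 46.9% in NotoPs, *Prickle2* was 5.35% and 9.16% in MPs and 30.6% and 20.5% in NotoPs, and *Celsr2* reached 26.2% and 35.2% in trunk notochord.

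The peaks at the 2 Prickle genes lay mostly inside the genes. *Prickle2* spans several annotated transcript starts. Its strongest Foxa2 peak (19.9-fold, above 99.3% of Foxa2 peaks) lies 71.1 kb inside the gene, in a 5′ untranslated exon of a *Prickle2* transcript and 7.11 kb from the nearest annotated transcript start. The peak shared by both factors, printed above, had fold enrichments of 8.53 for T and 10.4 for Foxa2. It lies 195 kb from the outermost start and 23.9 kb downstream of the nearest annotated transcript start. Within 100 kb it was thus counted only when all transcript starts were used. It was also counted within 250 kb and in the interval between the neighbouring protein-coding genes. In total 3 T peaks and 7 Foxa2 peaks fell inside *Prickle2*. *Prickle1* had 8 T peaks and 5 Foxa2 peaks within 100 kb of its start, the most of any member, and 2 places where they overlapped. Of these, 1 lies 1.74 kb (T, 5.33-fold) and 2.06 kb (Foxa2, 8.40-fold) downstream of the start, and the other, printed above, 32.4 kb (T, 10.5-fold) and 32.3 kb (Foxa2, 3.79-fold) downstream, both in introns. The strongest Foxa2 peak at *Prickle1* (15.0-fold) lies 75.8 kb upstream.

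Of the Vangl membrane proteins, *Vangl1* (chr3:102153583-102204744, minus strand) differed between cell types more than *Vangl2* (chr1:172000960-172027318, minus strand) did. *Vangl1* was at 19.7 and 11.9 FPKM in E8.5 and E9.5 NotoPs, 32.4 and 18.6 in trunk notochord, and 2.52 and 3.91 in MPs. The notochord libraries lay between 11.9 and 32.4 and did not overlap the MPs. The ratio of NotoPs to MPs was 7.81 at E8.5 and 3.03 at E9.5, where the difference of 1.39 on the log2(FPKM + 1) scale missed the 3-fold limit. Trunk notochord was 12.8 and 4.76 times above MPs (mean log2 difference of 2.62 ± 0.55, SE; limma, adjusted p = 0.203). In culture *Vangl1* was at 19.5 FPKM in NotoPdiffs, 5.61 in MPdiffs and 21.6 in NMPdiffs, 3.47 times higher in NotoPdiffs than in MPdiffs but 0.901 times the NMPdiff level.

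*Vangl2* was at 24.2 and 13.4 FPKM in E8.5 and E9.5 NotoPs, 24.3 and 51.5 in trunk notochord, and 31.0 and 15.6 in MPs. MPs were thus slightly above NotoPs at both stages (ratios of NotoPs to MPs of 0.781 and 0.860), and E9.5 trunk notochord stood apart from the other embryonic libraries, 3.85 times above E9.5 NotoPs and 3.31 times above E9.5 MPs. At E8.5 the trunk to NotoP ratio was 1.01. In culture *Vangl2* was at 29.9 FPKM in NotoPdiffs, 20.0 in MPdiffs and 18.2 in NMPdiffs. *Vangl2* made up 92.5% and 80.0% of the summed Vangl FPKM in MPs, 55.1% and 53.1% in NotoPs, and 42.9% and 73.5% in trunk notochord at E8.5 and E9.5. In culture the share was 60.6% in NotoPdiffs, 78.1% in MPdiffs and 45.7% in NMPdiffs. The mesoderm library had a higher *Vangl2* share than the NotoP library at E8.5, at E9.5, and in culture. The genes most like *Vangl1* were *Vwa5a* (r = 0.96), *Tapbp* (r = 0.95) and *Timp3* (r = 0.95), and those most like *Vangl2* were *Bre* (r = 0.94), *Zfp788* (r = 0.92) and *Pkp4* (r = 0.91).

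Around *Vangl1*, 3 T peaks lay within 100 kb, all downstream of its start. The strongest (13.5-fold, above 87.7% of T peaks) is 58.9 kb away in the 3′ untranslated exon of *Casq2*, and 1 weak peak (3.46-fold) lies in an intron of *Vangl1*. Both Foxa2 peaks of *Vangl1* are upstream and between genes, at 56.5 kb (12.4-fold) and 95.7 kb (11.0-fold). *Vangl2* had no T peak within 100 kb and 1 Foxa2 peak, of 8.12-fold enrichment, in an intron 1.21 kb from its start. The 101 bases around the strongest Foxa2 summit of each Vangl gene are shown because neither stretch contains the forkhead motif and both contain a CA repeat (read as GT on the printed strand at *Vangl1*).
Vangl1, Foxa2 summit, chr3:102261147-102261247, between genes: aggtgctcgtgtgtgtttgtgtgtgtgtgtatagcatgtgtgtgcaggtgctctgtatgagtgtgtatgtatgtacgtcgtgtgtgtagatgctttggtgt
Vangl2, Foxa2 summit, chr1:172026057-172026157, intron of *Vangl2*: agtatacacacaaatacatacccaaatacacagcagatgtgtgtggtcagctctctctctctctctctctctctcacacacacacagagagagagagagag

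Among the Celsr cadherins, *Celsr1* (chr15:85898758-86034223, minus strand) was the main paralogue in all 9 libraries and *Celsr2* (chr3:108390848-108416069, minus strand) set trunk notochord apart. *Celsr1* was at 40.1 and 22.7 FPKM in E8.5 and E9.5 NotoPs, 27.1 and 27.7 in trunk notochord, and 25.6 and 9.56 in MPs. E8.5 MPs lay above E9.5 NotoPs, so the groups overlapped across stages, and the ratio of NotoPs to MPs was 1.57 at E8.5 and 2.37 at E9.5. In culture *Celsr1* was at 19.0 FPKM in NotoPdiffs, 6.27 in MPdiffs and 4.44 in NMPdiffs. NotoPdiffs were 3.03 times above MPdiffs, which missed the limit after the addition of 1 FPKM (log2 difference of 1.46), and 4.28 times above NMPdiffs. In NotoPdiffs compared with NMPdiffs, 3 members were called higher, *Celsr1*, *Cthrc1* and *Prickle2*, beside 2.35% of genes, and 0 lower, beside 1.23%.

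*Celsr2* was at 10.2 and 15.1 FPKM in E8.5 and E9.5 trunk notochord, 1.17 and 1.67 in NotoPs and 0.998 and 0.703 in MPs. The trunk libraries were 8.67 and 9.04 times above NotoPs and 10.2 and 21.5 times above MPs. Both trunk libraries came from fewer cells than the NotoP libraries. By limma the mean log2 difference was 2.48 ± 0.65 (SE) from NotoPs (adjusted p = 0.490) and 2.86 ± 0.65 from MPs (adjusted p = 0.213). In culture *Celsr2* was at 3.30 FPKM in NotoPdiffs, 1.00 in MPdiffs and 1.49 in NMPdiffs. *Celsr3* (chr9:108826023-108852969, plus strand) is listed at 0 in E9.5 trunk notochord, E8.5 MPs and E9.5 NotoPs, was at 1.52 FPKM in E8.5 trunk notochord, 0.490 in E8.5 NotoPs and 0.277 in E9.5 MPs, and was highest in NMPdiffs at 2.66 FPKM, compared with 0.864 in NotoPdiffs and 0.425 in MPdiffs. *Celsr1* made up 96.0% and 93.1% of the summed Celsr FPKM in NotoPs, 96.2% and 90.7% in MPs, and 69.9% and 64.8% in trunk notochord. In culture its share was 82.0% in NotoPdiffs, 81.4% in MPdiffs and 51.7% in NMPdiffs, where *Celsr3* took 31.0%. The genes most like *Celsr1* were *Pfn2* (r = 0.97), *Zcchc11* (r = 0.97) and *Sgce* (r = 0.97), those most like *Celsr2* were *Col11a2* (r = 0.98), *Sec62* (r = 0.96) and *Tmem106b* (r = 0.96), and those most like *Celsr3* were *Ap2a2* (r = 0.97), *Cpox* (r = 0.93) and *Wasf2* (r = 0.92).

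The 4 neural tube markers had their highest sum in trunk notochord, where *Celsr2* was also highest, mainly through *Irx3*. They summed to 67.9 and 54.2 FPKM in E8.5 and E9.5 trunk notochord, to 19.6 and 19.7 in NotoPs, and to 8.61 and 0.960 in MPs, nearly all of the trunk sum being *Irx3* (64.6 and 53.6 FPKM). The other 3 were low or absent in the trunk libraries: *Pax6* and *Olig2* are listed at 0 in both, and *Sox1* was at 3.27 FPKM at E8.5 and 0.589 at E9.5. In culture the sum did not follow *Celsr2*: it was 2.72 FPKM in NotoPdiffs, 3.09 in MPdiffs and 8.16 in NMPdiffs, while *Celsr2* was highest in NotoPdiffs. The part of other cells in the *Celsr2* level was not tested.

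The strongest peak at any member was a Foxa2 peak 11.6 kb upstream of *Celsr1*, between genes, with a fold enrichment of 23.4 that ranked 23rd of the 22684 Foxa2 peaks. *Celsr1* also had 3 T peaks, all in its introns, of 7.02-fold to 8.33-fold enrichment. *Celsr2* had its strongest peaks of both factors in introns of *Elapor1*, beyond *Sars*, the nearest protein-coding gene upstream. They were a Foxa2 peak 47.9 kb upstream (18.9-fold, above 98.8% of the list) and a T peak 61.0 kb upstream (13.3-fold). *Celsr3* had 3 Foxa2 peaks of 5.01-fold to 7.08-fold enrichment and no T peak within 100 kb. The sequences at the leading Celsr peaks are shown for their forkhead motifs, in capitals, and because the Foxa2 summits again lie in CA repeats.
Celsr1, Foxa2 summit, chr15:86045732-86045832, between genes: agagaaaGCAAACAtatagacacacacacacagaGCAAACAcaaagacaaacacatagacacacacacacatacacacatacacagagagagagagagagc
Celsr2, Foxa2 summit, chr3:108463943-108464043, intron of *Elapor1*: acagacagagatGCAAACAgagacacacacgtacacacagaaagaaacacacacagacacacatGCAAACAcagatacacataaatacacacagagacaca
Celsr2, T summit, chr3:108477061-108477161, intron of *Elapor1*: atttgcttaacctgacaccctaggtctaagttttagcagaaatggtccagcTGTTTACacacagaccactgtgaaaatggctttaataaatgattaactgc
Each Foxa2 stretch holds TGTTTGC at 2 places on the minus strand, and the T stretch of *Celsr2* holds TGTTTAC on the plus strand.

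*Ptk7* (chr17:46564451-46630049, minus strand), the pseudokinase receptor, had the highest level of the members in every library outside the trunk and was the member called lower in trunk notochord. It was at 201 and 199 FPKM in E8.5 and E9.5 NotoPs, 112 and 182 in MPs, and 36.7 and 48.0 in trunk notochord. Both trunk libraries lay below all 4 caudal libraries. NotoPs were 5.47 and 4.14 times above trunk notochord (log2 differences of trunk minus NotoP of -2.42 and -2.03), and MPs 3.06 and 3.79 times above it. In culture *Ptk7* was at 143 FPKM in NotoPdiffs, 114 in MPdiffs and 91.9 in NMPdiffs, all above the 94th percentile of the genes tested. In trunk notochord compared with NotoPs, 1 of the 9 members was called higher (*Celsr2*), beside 1.66% of genes, and 1 lower (*Ptk7*), beside 1.97%. In the limma fit 0 members passed in this comparison, beside 0% of genes higher and 0.00839% lower (2 members and 1047 genes under 0.05 before adjustment); the mean log2 difference of *Ptk7* was -2.22 ± 0.26 (SE; adjusted p = 0.273). The gene most like *Ptk7* over the 9 libraries was *Hes7* (r = 0.96), a clock gene of presomitic mesoderm, followed by *Pip5k1c* (r = 0.95) and *Lmo2* (r = 0.95). The mesoderm progenitor markers were also lowest in trunk notochord: their sums of 336 and 272 FPKM in NotoPs and 195 and 473 in MPs compare with 5.60 and 0 there. Between NotoPs and MPs, the sum and *Ptk7* were both higher in NotoPs at E8.5. At E9.5 the sum was higher in MPs and *Ptk7* in NotoPs. In culture the sum was higher in MPdiffs (253 FPKM, compared with 142 in NotoPdiffs) and *Ptk7* in NotoPdiffs. The part of these cells in the *Ptk7* difference was not tested. *Ptk7* was the only member without a Foxa2 peak within 100 kb. It had 2 T peaks in its introns, 11.1 kb (8.03-fold) and 16.6 kb (4.39-fold) from the start, and the stronger is shown as the only kind of site found at this gene.
Ptk7, T summit, chr17:46618850-46618950, intron of *Ptk7*: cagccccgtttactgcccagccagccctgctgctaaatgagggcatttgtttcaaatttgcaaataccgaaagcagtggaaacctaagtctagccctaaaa
Neither TCACACCT nor the forkhead motif occurs in it.

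*Scrib* (chr15:76047162-76069784, minus strand), the basolateral scaffold, varied least. It was at 8.16 and 13.5 FPKM in E8.5 and E9.5 NotoPs, 7.95 and 14.7 in MPs, 13.5 and 18.4 in trunk notochord, 13.5 in NotoPdiffs, 15.2 in MPdiffs and 13.2 in NMPdiffs. NotoPs and MPs of the same stage had ratios of 1.03 and 0.918. All 3 embryonic cell types had more *Scrib* at E9.5 than at E8.5 (ratios of 1.65, 1.85 and 1.37 in NotoPs, MPs and trunk notochord). The genes most like it were *Ercc2* (r = 0.99), *Son* (r = 0.97) and *Trak2* (r = 0.96). A Foxa2 peak of 19.4-fold enrichment, above 99.1% of the list, lies 58.8 kb upstream of *Scrib* between genes, and a weak T peak (4.25-fold) 87.8 kb downstream in a coding exon of *Ccdc166*. Both lie within 5 kb of an annotated start of another gene. The Foxa2 peak is beyond *Puf60*, the nearest protein-coding gene upstream. The Foxa2 stretch is shown as the counterpart of the strong Celsr peaks: it has the forkhead motif without a CA repeat, 58.8 kb from a gene with an even level.
Scrib, Foxa2 summit, chr15:76128575-76128675, between genes: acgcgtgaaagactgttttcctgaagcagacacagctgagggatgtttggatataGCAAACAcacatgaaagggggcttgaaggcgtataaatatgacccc

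Between E8.5 and E9.5, no member passed 3-fold in NotoPs, MPs or trunk notochord, where 7.4%, 17.6% and 17% of all genes tested were called in either direction. In the limma fit over all 3 cell types, 0 members and 0% of genes passed for stage in either direction (0 members and 635 genes under 0.05 before adjustment). *Vangl2* was 2.12 times higher at E9.5 in trunk notochord, at 51.5 compared with 24.3 FPKM, and lower at E9.5 in NotoPs (0.553 times) and in MPs (0.503 times). *Celsr1* was at 0.373 times its E8.5 level in MPs and *Cthrc1* at 0.478 times its E8.5 level in NotoPs. *Prickle2* in MPs was 2.83 times higher at E9.5, from 1.01 to 2.84 FPKM.

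For the rest of the pathway, a list of 35 further genes was used: Prickle paralogues, Frizzled and Dishevelled, ligands and co-receptors, cytoplasmic modulators, ciliary and cytoskeletal effectors, the Fat and Dachsous system and the Scrib complex. All 35 are in the table and 33 had a mean of at least 1 FPKM. In NotoPs compared with MPs, 1 was called higher, *Fzd6*, and 1 lower, *Wnt5a*, which is 3.03% of the list each way beside 2.61% and 0.478% of all genes; limma called 0 of the 33 (5 under 0.05 before adjustment), with an adjusted p of 0.346 for *Fzd6* and 0.401 for *Wnt5a*. The median difference of the 33 genes was 0.22 at E8.5 and 0.22 at E9.5, compared with 0.10 and 0.02 over all genes tested. *Wnt5a*, a ligand of the pathway, was at 9.53 and 29.1 FPKM in E8.5 and E9.5 NotoPs, 53.0 and 108 in MPs, and 11.2 and 16.4 in trunk notochord, with log2 differences of NotoPs minus MPs of -2.36 and -1.86. In culture *Wnt5a* was at 7.44 FPKM in NotoPdiffs, 24.7 in MPdiffs and 8.75 in NMPdiffs. In NotoPdiffs compared with MPdiffs, *Fzd6* was again called higher and *Wnt5a* lower, as was *Dact1*, a Dishevelled-binding modulator (9.12 FPKM in NotoPdiffs and 59.5 in MPdiffs), so that 3.03% of the list was higher beside 2.82% of all genes and 6.06% lower beside 0.78%. *Dact1* did not separate embryonic NotoPs from MPs (10.9 and 42.7 FPKM in NotoPs, 9.95 and 49.2 in MPs at E8.5 and E9.5). In trunk notochord compared with MPs, *Fzd6* was called higher, and *Wnt5a* and *Fjx1*, a kinase of the Fat and Dachsous system (2.72 and 0 FPKM in the trunk, 18.2 and 7.72 in MPs), lower, or 3.03% and 6.06% of the list beside 4.44% and 1.88% of all genes. In trunk notochord compared with NotoPs, 0 of the 33 were called by fold, beside 1.66% of genes higher and 1.97% lower. In NotoPdiffs compared with NMPdiffs 1 was higher (*Fzd6*) and 1 lower, the Wnt5a co-receptor *Ror1* (1.55 FPKM in NotoPdiffs and 7.02 in NMPdiffs), 3.03% each way beside 2.35% and 1.23% of all genes.

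**Figure D4:**
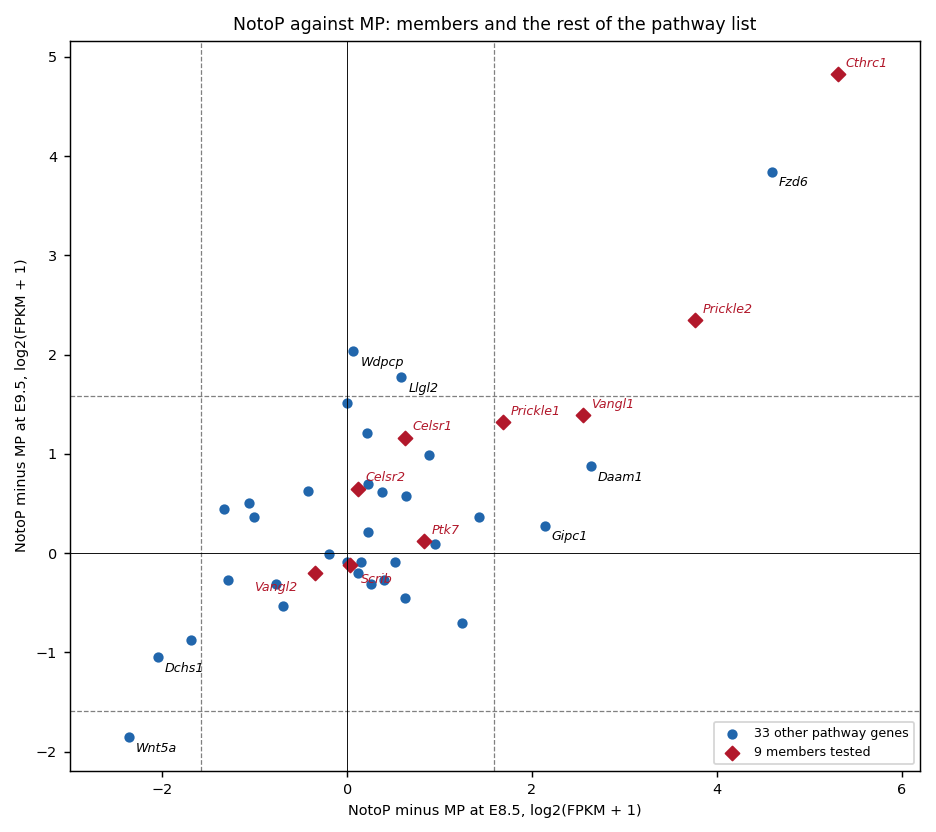
Difference of NotoPs minus MPs in log2(FPKM + 1) at E8.5 (horizontal axis) and E9.5 (vertical axis) for the 9 members tested (red diamonds) and 33 other pathway genes (blue circles); dashed lines mark 3-fold. *Cthrc1*, *Prickle2* and *Fzd6* lie past 3-fold at both stages in the upper right and *Wnt5a* in the lower left; the E8.5 value of *Fzd6* is against an MP library in which it is listed at 0.

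Peaks near the members were counted by the distance of the summit from the gene's annotated start. A T summit lay within 100 kb of 7 of the 10 members, compared with 44.8% of 19263 placed protein-coding genes, a Foxa2 summit of 9 members, compared with 74.3%, and a shared peak of 2 members (*Cthrc1* and *Prickle1*), compared with 9.13%. *Vangl2*, *Prickle2* and *Celsr3* had no T peak in this window. Including peaks elsewhere in the gene bodies, 23 T peaks and 28 Foxa2 peaks were assigned to members, with 15 of the T peaks and 12 of the Foxa2 peaks inside the gene. Peaks further than 100 kb from the start enter these counts only when they lie inside the gene. The share of all peaks inside genes was not computed, so the factors are not compared by these counts. Peaks were called from 1 library of each factor, and the nearness of a peak does not show which gene it acts on.

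**Figure D5:**
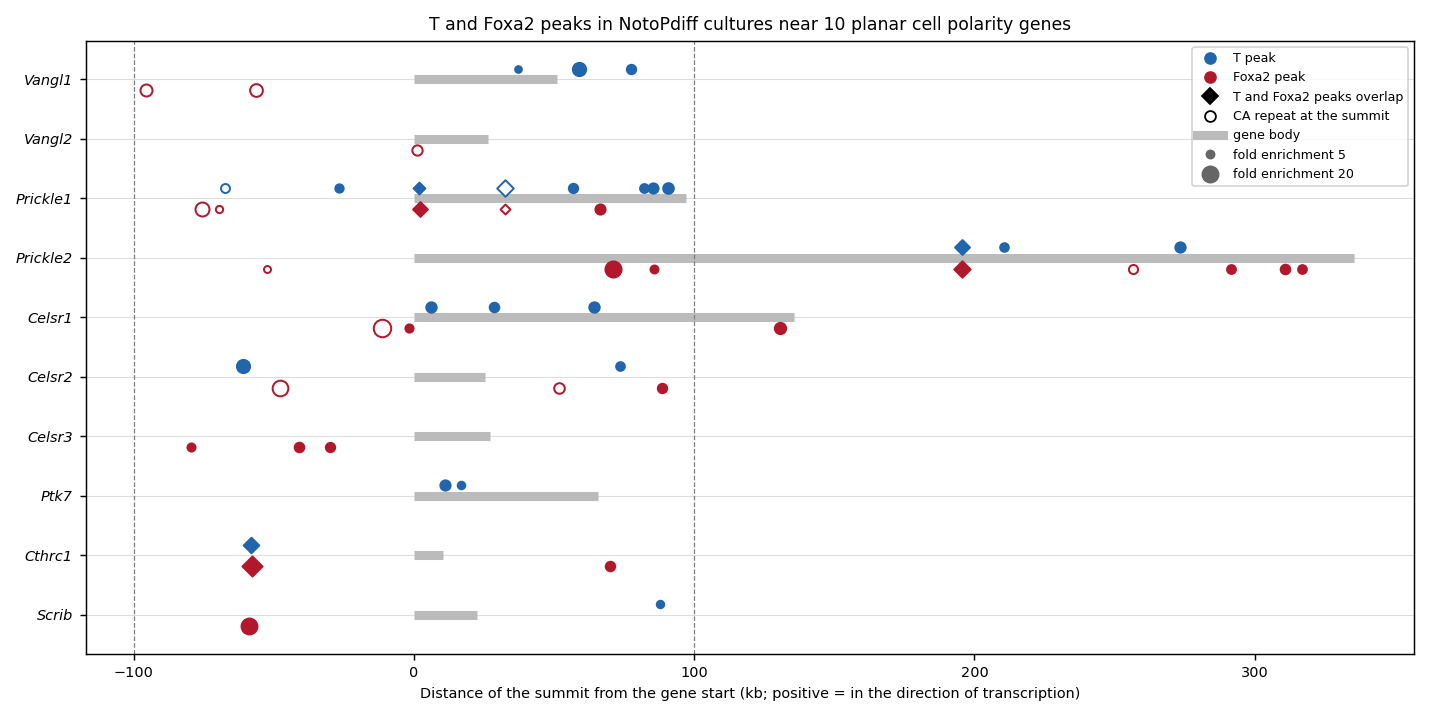
Summits of T (blue, above the line) and Foxa2 (red, below) peaks by distance from the start of each gene in kb (horizontal axis, positive in the direction of transcription); marker area is proportional to fold enrichment, diamonds mark overlapping T and Foxa2 peaks, open markers a CA repeat within 50 bp of the summit, grey bars the gene, and dashed lines 100 kb. Overlapping peaks are seen upstream of *Cthrc1*, at 2 places in *Prickle1* and deep in *Prickle2*.

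Within 50 bp of the summit, the forkhead motif occurred at 7 of the 28 Foxa2 peaks of members, compared with 17.9% of all Foxa2 peaks, and at 3 of the 23 T peaks, compared with 13.1% of all T peaks. The T motif element TCACACCT was found at 0 of the 23 T peaks, where 2.97% of all T peaks have it. Its core CACACC was found at 2 of the 23, compared with 14.3%. No match says only that these letters are not in the window. A run of CACACACA, on either strand, lay within 50 bp of 34.3% of all Foxa2 summits, compared with 2.63% of all T summits and with 4.03% and 3.98% of windows of the same length 2 kb to the left and right of the Foxa2 summits. The share was 17.5% among the tenth of Foxa2 peaks with the lowest fold enrichment, 43.6% among the tenth with the highest, and 6.56% among Foxa2 peaks that overlap a T peak. Of the 28 Foxa2 peaks of members, 11 had such a run, among them the strongest peaks of *Celsr1*, *Celsr2*, *Prickle1* and *Vangl1* and the only peak of *Vangl2*. The shared peaks at *Cthrc1* and *Prickle2* had none, and those at *Prickle1* had one at 32 kb but not near the start. When peaks on such runs were left out, 7 of the 10 members kept a Foxa2 peak within 100 kb, compared with 62.9% of all genes, and the members that lost theirs were *Vangl1* and *Vangl2*. The part of these repeats in the Foxa2 signal was not tested, and no control library is named for the peak calls.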

How the data were processed

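The authors deposited 1 table of FPKM values for 9 RNA libraries (1 a group) and, for each factor, 1 peak list. Per the study's methods, RNA reads were aligned with TopHat2 2.1.1 to mm10 with a strand-specific setting, deduplicated by molecular identifiers, and turned into FPKM with Cufflinks 2.2.1. ChIP-seq reads were aligned with Bowtie 1.3.1 and peaks called per library with MACS3 3.0.0b1. The deposited peak lists hold fold enrichment (a ratio over the local background), −log10 p-values and q-values, and a score, which was not used. The FPKM table holds no read counts; the mapped reads that the study lists for embryonic libraries were not used here, and those of the cultured libraries are not given in the sources used here. The table has 0 unused sample columns.

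From these files were computed differences of log2(FPKM + 1), with a call past 3-fold among genes averaging 1 FPKM or more, the percent of each paralogue in its family's FPKM, and Pearson correlations over 9 libraries. All 10 members were placed on RefSeq GRCm38.p6; summits were assigned within 100 kb of the gene's outermost start, peaks were shared when overlapping by at least 1 bp, and motifs were searched within 50 bp of summits on both strands. With 1 library a group, differences of single libraries were not tested. The 6 embryonic libraries were also fitted with limma 3.58.1 in R 4.3.3 (cell type plus stage, empirical Bayes with a trend, called at an adjusted p under 0.05), chosen after the data were seen; a difference between stages within a cell type, or its difference between cell types, has no residual degree of freedom there. The named genes were the 10 members, other pathway genes past the limit in NotoPs compared with MPs at both stages or in NotoPdiffs compared with MPdiffs, and the 3 genes most like each member; pathway genes called in other comparisons and the CA repeat were named after their values were seen. For peaks, each member's strongest peak of each factor and every shared peak were named. The members and lists were chosen with earlier results of these data known. The fold call and limma fit were tested on simulated data. Python 3.11.15, pandas 2.3.3 and pysam 0.24.0 were used. Alternatives were other pseudocounts, folds, scaling, filters, stages, windows and q limits. Other samples of the series were not used here.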

Additional observations from a re-analysis of the deposited data

Results flagged for a closer look

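*Vangl2* moved in opposite directions between the stages in different cell types. From E8.5 to E9.5 it was lower in NotoPs (log2 difference of -0.81) and in MPs (-0.95) and higher in trunk notochord (1.05), so that the stage difference of NotoPs minus that of trunk notochord was -1.86 and that of MPs minus that of trunk notochord was -2.0. With 1 library a group, neither of these differences between cell types was tested.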

How the results depend on the processing

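With 1 library a group, no spread between replicates is known. The labels give no replicate numbers, so the embryonic libraries were paired by stage alone, through the stage term of the limma fit. Of 112 recomputed counts and shares, 92 stayed within 1.5 times the reported value. In the limma fit, which uses an adjusted p in place of the fold, 0 members were called in NotoPs over MPs, 0 in trunk notochord over NotoPs and 1 in trunk notochord over MPs (*Cthrc1*), compared with 2, 2 and 5 by fold. At 2-fold, 4 members were called in NotoPs over MPs (adding *Vangl1* and *Prickle1*), 6 in NotoPdiffs over MPdiffs, and 1 between stages in each of NotoPs (*Cthrc1*), MPs (*Celsr1*) and trunk notochord (*Vangl2*). E8.5 alone also gave 4 in NotoPs over MPs. A pseudocount of 5 left 1 call in trunk notochord over NotoPs (*Ptk7*) and 1 in trunk notochord over MPs (*Cthrc1*), and ended the calls of *Vangl1* in NotoPdiffs over MPdiffs (log2 difference of 1.21) and of *Celsr1* in NotoPdiffs over NMPdiffs (1.35). Adding 1 FPKM to each paralogue raised the *Prickle2* share to 9.65% in E8.5 MPs and 6.50% in NMPdiffs. Limiting the window to 50 kb left T peaks at 4 members, Foxa2 peaks at 5 and shared ones at 1 (26.9%, 52.7% and 4.68% of all genes), a window of 250 kb put shared peaks at 4 (21.0%), and the interval between the neighbouring protein-coding genes left Foxa2 peaks at 5 (47.8%). The core CACACC was at 2 T peaks of members, and 12 Foxa2 peaks had the forkhead motif within 150 bp. Rescaling the libraries ended the call of *Ptk7* as lower in trunk notochord than in MPs (log2 difference of -1.55). *Cthrc1* and *Prickle2* in NotoPs over MPs kept their 3-fold calls at a pseudocount of 5, after rescaling, and with the E9.5 MPs as comparator at both stages. The lowest log2 difference of *Prickle2* was 1.59, at a pseudocount of 5. The 2-fold limit, no filter, each stage alone and a pseudocount of 0.1 could not end a higher call, so they do not bear on these 2 genes. Over all genes, calls in NotoPs over MPs (311 higher and 57 lower) came to 683 and 149 with a pseudocount of 0.1, 83 and 8 with 5, 775 and 222 at 2-fold, 1976 and 882 at E8.5 alone, and 577 and 239 at E9.5 alone. A pseudocount of 5 gave 44 higher and 57 lower in trunk notochord over NotoPs (198 and 235 as reported), 141 and 59 in trunk notochord over MPs (529 and 224), 88 and 27 in NotoPdiffs over MPdiffs (336 and 93) and 83 and 60 in NotoPdiffs over NMPdiffs (280 and 147). At 2-fold the same comparisons gave 568 and 598, 1148 and 590, 874 and 303, and 779 and 520. The limma fit, the windows around any transcript start, the repeat filter and trunk notochord of E9.5 at both stages were added after the data were seen.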
